A study of Mus musculus with 6 samples.

Results

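The β-catenin destruction complex was followed at the RNA level in intestinal adenomas of the mouse models ApcMin and Apc1322T, through 9 of its genes: *Apc*, *Apc2*, *Axin1*, *Amer1*, *Csnk1a1*, *Gsk3a*, *Gsk3b*, *Btrc* and the substrate gene *Ctnnb1*. The genes were chosen for their part in the complex, with earlier results of these data known, and found by their annotated symbols. All 9 were among the 34866 genes of the count table. A filter on low counts left 16536 genes for the test, with 8 of the 9, and removed *Apc2*. There were 3 libraries from adenomas of Apc1322T/+ mice and 3 from adenomas of ApcMin/+ mice, all C57BL/6J and between 100 and 120 days old. Both genotypes carry 1 mutant *Apc* allele in the germline and no other engineered allele is named, and there was no normal tissue among these libraries. The truncation of ApcMin is the shorter and lacks the β-catenin binding repeats, whereas the longer truncation of Apc1322T keeps several binding sites. The tissue was excised, so that a library holds the RNA of adenoma cells and of the stroma around them, and by the study's methods a sample was typically a pool of several RNA extractions from 1 mouse. The labels do not tie a library to a mouse, so that the p-values measure the spread between these libraries.

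In cells without a Wnt signal, the scaffolds Axin and Apc hold β-catenin next to 2 kinds of kinase. Casein kinase 1α phosphorylates β-catenin first, glycogen synthase kinase 3 follows, and the F-box protein β-TrCP recognises the phosphorylated stretch and passes β-catenin on for destruction by the proteasome. Loss of Apc disables this step, β-catenin accumulates and enters the nucleus, and target genes are switched on, which is the usual start of intestinal polyposis. The stretch of β-catenin on which these proteins meet is shown because 4 of the 9 genes encode proteins that act on it directly. It was read from the GENCODE M21 transcript of *Ctnnb1*, and lies in exon 3 on the plus strand of GRCm38, chr9:120950602-120950643. It covers codons 32 to 45, and the capitals mark the codons of the phosphorylated residues at 33, 37, 41 and 45, the last of which is the site of casein kinase 1.

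Ctnnb1 coding stretch: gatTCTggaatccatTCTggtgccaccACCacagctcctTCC

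The libraries held between 23132461 and 33518324 estimated counts. Levels are given as CPM, the counts per 1000000 counts of a library after scaling by the TMM method, and log2 fold changes are ApcMin relative to Apc1322T from edgeR's quasi-likelihood test, with a standard error (SE) and a 95% interval. At the study's threshold of an adjusted p under 0.01, edgeR called 0 of the 16536 genes, or 0% of them, and 0 of the 8 members tested. At an unadjusted p under 0.05 there were 2 members, *Apc* and *Gsk3a*, against a background of 15.1% of all genes. The study itself used DESeq2, whose Wald test called 1 member here, *Apc*, and 194 of 17503 genes (1.11%). For 4 of the 8 members the genotypes did not overlap, every library of one being higher than every library of the other, which held for 21.0% of all genes. *Apc* and *Amer1* were the 2 that were higher in ApcMin adenomas, and *Gsk3a* and *Ctnnb1* the 2 that were lower. Epithelial transcripts in sum were lower in the ApcMin libraries. Relative to them, *Gsk3a* was level between the genotypes (log2 difference 0.0075) and the direction of *Ctnnb1* turned, with overlap, as described further on. In such bulk samples, fewer cells of a type and less RNA per cell cannot be told apart.

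**Figure D1:**
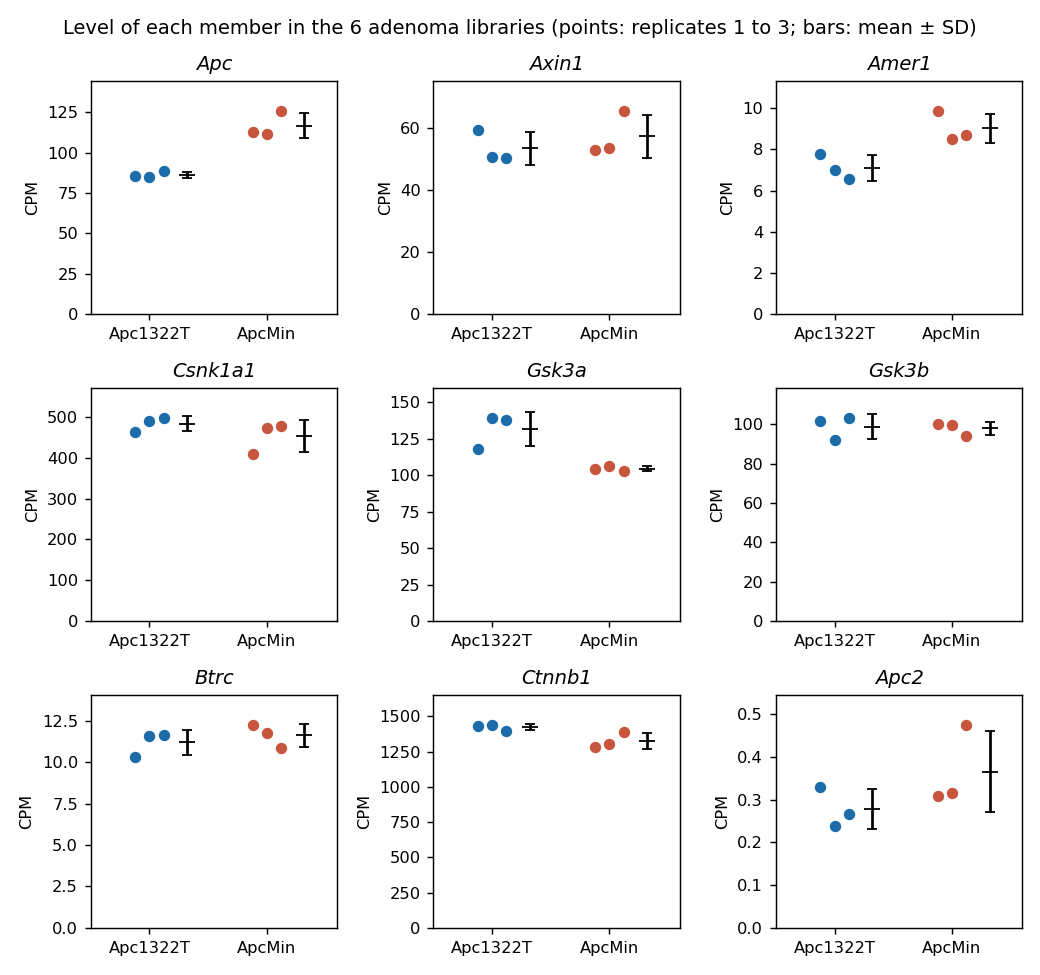
Level of the 9 genes in each library, in CPM on linear axes that start at 0, with Apc1322T in blue, ApcMin in red, replicates 1 to 3 from left to right as points, and the mean ± SD of 3 libraries as bars. *Apc* sits between 85.2 and 88.4 CPM in Apc1322T and between 112 and 126 CPM in ApcMin adenomas, *Gsk3a*, lower in ApcMin on this scale, and *Amer1*, higher, also show a gap, and *Apc2* stays under 0.5 CPM.

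*Apc*, the gene mutated in both models, showed the largest difference of the 8. The gene (ENSMUSG00000005871) spans 34220924 to 34322552 of chromosome 18 in GRCm38. Its level was 85.5, 85.2 and 88.4 CPM in Apc1322T replicates 1, 2 and 3, and 113, 112 and 126 CPM in ApcMin replicates 1, 2 and 3. The Apc1322T libraries were nearly equal to each other and the lowest ApcMin library was above all of them. The log2 CPM was 6.43 ± 0.030 (SD, n = 3) in Apc1322T and 6.86 ± 0.094 (SD, n = 3) in ApcMin adenomas, with a gap of 0.34 between the nearest libraries. The log2 fold change was 0.43 (SE 0.081, 95% interval 0.24 to 0.63), or 1.35-fold. Its adjusted p was 0.257 in edgeR's quasi-likelihood test and 0.00936 in DESeq2's Wald test, so that the 2 tools placed *Apc* on different sides of the threshold. Over all alternatives the adjusted p ranged from 0.00936 to 0.692, and the log2 fold change scaled to the library ranged from 0.38 to 0.49. An exact permutation test of the log2 CPM (two-sided) gave p = 0.10, the smallest that 3 libraries against 3 allow. By its unadjusted p, *Apc* was at place 68 of the 16536 genes, although 25.7% of them had an equal or larger fold change in either direction. The counts sum the transcripts of whichever *Apc* alleles were present, so that they check neither genotype and do not separate mutant from normal RNA. By the study's account, an ApcMin adenoma arises through loss of heterozygosity at *Apc* in an epithelial cell. How much RNA of the normal allele was left in these libraries was not tested.

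The 2 other scaffolds tested were *Axin1* and *Amer1*. Axin1 brings the kinases, Apc and β-catenin together, and Amer1, also known as Wtx, binds Apc and β-catenin at the plasma membrane. *Axin1*, on chromosome 17 (26138688 to 26195811), had 59.5, 50.8 and 50.3 CPM in the Apc1322T libraries and 53.0, 53.7 and 65.4 CPM in the ApcMin libraries. The genotypes overlapped, with 1 higher library in each. The log2 fold change was 0.10 (SE 0.12, 95% interval -0.19 to 0.39), with an adjusted p of 0.697 in edgeR's test, and came to -0.0057 when ApcMin replicate 3 was left out.

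*Amer1* is on the X chromosome (95420318 to 95444872), and its level was 7.76, 6.98 and 6.55 CPM in Apc1322T and 9.83, 8.49 and 8.69 CPM in ApcMin adenomas. All ApcMin libraries were above all Apc1322T libraries, by 0.13 on the log2 scale between the nearest. The log2 fold change of 0.34 was the second largest increase among the members (SE 0.15, 95% interval -0.017 to 0.70). It did not pass the test, with an adjusted p of 0.341 in edgeR's and of 0.395 in DESeq2's test. As the gene is X-linked, transcripts of the Y chromosome were looked at beside it: *Ddx3y*, *Kdm5d*, *Uty* and *Eif2s3y* summed to between 142 and 151 CPM in Apc1322T and to between 137.5 and 165 CPM in ApcMin libraries. Every library thus held RNA from males, in similar amounts. Transcripts of the Y chromosome cannot show whether RNA from females was present too.

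The kinases of the complex are casein kinase 1α, encoded by *Csnk1a1*, and the paralogs glycogen synthase kinase 3α and 3β. *Csnk1a1* lies on chromosome 18 (61555274 to 61590061), at a distance of 27.2 Mb from *Apc*. It had 462, 490.1 and 497 CPM in Apc1322T and 408, 474 and 479 CPM in ApcMin adenomas, with overlap. Its log2 fold change was -0.091 (SE 0.10, 95% interval -0.33 to 0.15), with an adjusted p of 0.676 in edgeR's test.

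*Gsk3a*, on chromosome 7 (25228258 to 25237851), had 118, 139 and 138 CPM in the Apc1322T libraries and 104, 106 and 103 CPM in the ApcMin libraries. The ApcMin libraries were nearly equal and all lay below the Apc1322T libraries, among which replicate 1 was the lowest. The log2 fold change was -0.33 (SE 0.091, 95% interval -0.55 to -0.12), or 1.26-fold higher in Apc1322T adenomas. The unadjusted p was 0.00851 and the adjusted p 0.279 in edgeR's test, and 0.0840 in DESeq2's test, so that *Gsk3a* passed under neither. The antisense gene *9130221H12Rik* shares 820 exonic bases with *Gsk3a*, and was not analysed here. By the study's methods the libraries were made with a directional kit and gave stranded reads. Whether counting used the strand is not given in the sources used here, so that reads of the pair may not be separated. *Gsk3b*, on chromosome 16 (38089001 to 38246084), had 102, 91.9 and 103 CPM in Apc1322T and 100.0, 99.5 and 94.2 CPM in ApcMin adenomas. The genotypes covered the same range, and the log2 fold change was -0.015 (SE 0.082, 95% interval -0.21 to 0.18), a sign that 3 of the 6 fits without a library turned. The paralogs together had 219.8, 231 and 241 CPM in Apc1322T and 204, 206 and 197 CPM in ApcMin adenomas. *Gsk3a* took 53.7%, 60.2% and 57.2% of their joint counts in Apc1322T replicates 1 to 3, and 51.0%, 51.7% and 52.1% in ApcMin replicates 1 to 3.

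*Btrc* encodes β-TrCP1, the F-box protein that recognises phosphorylated β-catenin, and lies on chromosome 19 (45363734 to 45530013). Its level was 10.3, 11.6 and 11.6 CPM in Apc1322T and 12.2, 11.8 and 10.9 CPM in ApcMin adenomas. The ranges overlapped, with a log2 fold change of 0.056 (SE 0.13, 95% interval -0.24 to 0.35). *Gm6807*, a pseudogene on the opposite strand, shares 235 exonic bases with *Btrc* and had between 3.94 and 37.7 counts, against at least 244 for *Btrc*. Its paralog *Fbxw11*, which encodes β-TrCP2, had between 84.9 and 91.7 CPM in Apc1322T and between 77.0 and 89.3 CPM in ApcMin adenomas (log2 fold change -0.074, SE 0.087).

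*Ctnnb1*, the gene of β-catenin, lies on chromosome 9 (120929216 to 120960507). It had 1431, 1439 and 1398 CPM in Apc1322T and 1285, 1301 and 1389 CPM in ApcMin adenomas. All ApcMin libraries were below all Apc1322T libraries, but by only 0.0094 on the log2 scale between the nearest. The log2 fold change was -0.10 (SE 0.098, 95% interval -0.34 to 0.13), with an adjusted p of 0.618 in edgeR's test. As a fold, the interval of *Ctnnb1* runs from 0.793 to 1.09, scaled to the library. *Ulk4*, a gene on the opposite strand, shares 759 exonic bases with *Ctnnb1*, but had between 10 and 44 counts, against at least 30272 for *Ctnnb1*.

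*Apc2*, a paralog of *Apc* best known from the nervous system, was close to the limit of detection. It had 9, 5 and 6 counts in Apc1322T and 11, 8 and 15 counts in ApcMin replicates 1 to 3. Each library was above 3 counts, taken as the smallest signal. Summed over libraries the level was 0.281 CPM in Apc1322T (exact 95% Poisson interval 0.172 to 0.434) and 0.366 CPM in ApcMin adenomas (0.254 to 0.512). The intervals cover counting error only and overlap, so that a difference was not detectable at this depth.

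To compare the genes with each other, CPM were divided by the length of the longest coding transcript, as a long RNA gives more reads per molecule. *Ctnnb1* was the highest, with a mean of 8.57 log2 CPM per kilobase over the 6 libraries (SD 0.070). *Csnk1a1* followed at 6.84 (SD 0.10) and *Gsk3a* at 5.69 (SD 0.20). The substrate thus had the most RNA per length, and the first kinase to act on it had the most among the enzymes. *Axin1* was at 3.87 (SD 0.15), *Gsk3b* at 3.57 (SD 0.066) and *Apc* at 2.97 (SD 0.24). *Btrc* was at 1.91 (SD 0.089), *Amer1* at -0.091 (SD 0.22) and *Apc2* at -4.87 (SD 0.34). On this scale no 2 neighbours in the order had overlapping ranges, and each gene was above the next in 6 of 6 libraries. The choice of length changed part of the order. With the length of all merged exons in place of the longest transcript, *Csnk1a1* and *Gsk3a* overlapped (5.48 and 5.34), and *Btrc*, at -0.57, came below *Amer1*, because the merged exons of *Btrc* measure 16908 bases against 3037 for its longest coding transcript.

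**Figure D2:**
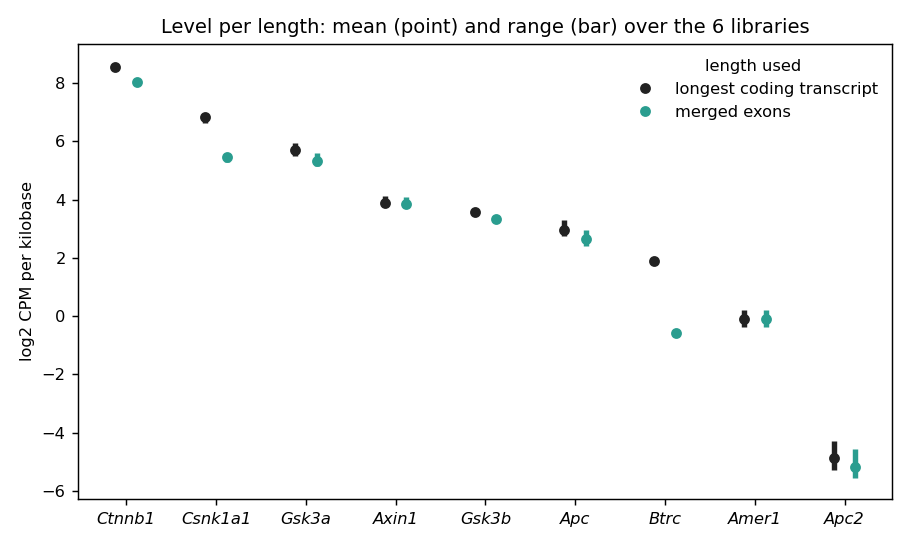
Level per length of the 9 genes, in log2 CPM per kilobase, where points are means and bars the range over the 6 libraries, with the longest coding transcript in black and merged exons in green. *Ctnnb1* is at 8.57 and *Apc2* at -4.87 with the longest transcript, and *Btrc* is the gene that moves most with the length used.

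Ratios between members of the same library do not depend on how libraries are scaled to each other, and 5 were compared by exact permutation tests (two-sided), none of which can go below p = 0.10. The log2 ratio of *Apc* to *Ctnnb1* counts was -4.07, -4.08 and -3.98 in Apc1322T and -3.51, -3.54 and -3.47 in ApcMin adenomas. It differed by 0.53, or 1.45-fold, without overlap (SD 0.052 and 0.038, n = 3 each, exact permutation p = 0.10, adjusted p = 0.25 over the 5 ratios). This was the widest separation of the 5, and the difference stayed between 0.51 and 0.56 when single libraries were omitted. The log2 ratio of *Gsk3a* to *Gsk3b* was 0.21, 0.60 and 0.42 in Apc1322T and 0.060, 0.095 and 0.12 in ApcMin adenomas. It was lower by 0.32 in ApcMin adenomas, again without overlap (exact permutation p = 0.10, adjusted p = 0.25).

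The 3 other ratios overlapped between the genotypes. *Btrc* to *Fbxw11* had a mean log2 ratio of -2.97 ± 0.093 (SD, n = 3) in Apc1322T and -2.84 ± 0.19 (SD, n = 3) in ApcMin adenomas (exact permutation p = 0.40). *Axin2*, a paralog of *Axin1* that is itself switched on by β-catenin, had more counts than *Axin1* in all 6 libraries. Their log2 ratio was 1.14 ± 0.032 (SD, n = 3) in Apc1322T adenomas, and in ApcMin adenomas it was 1.09, 1.73 and 1.16, with ApcMin replicate 2 apart (exact permutation p = 0.80). *Apc2* to *Apc* was at -8.18 ± 0.22 (SD, n = 3) in Apc1322T and -8.28 ± 0.24 (SD, n = 3) in ApcMin adenomas (exact permutation p = 0.50).

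**Figure D3:**
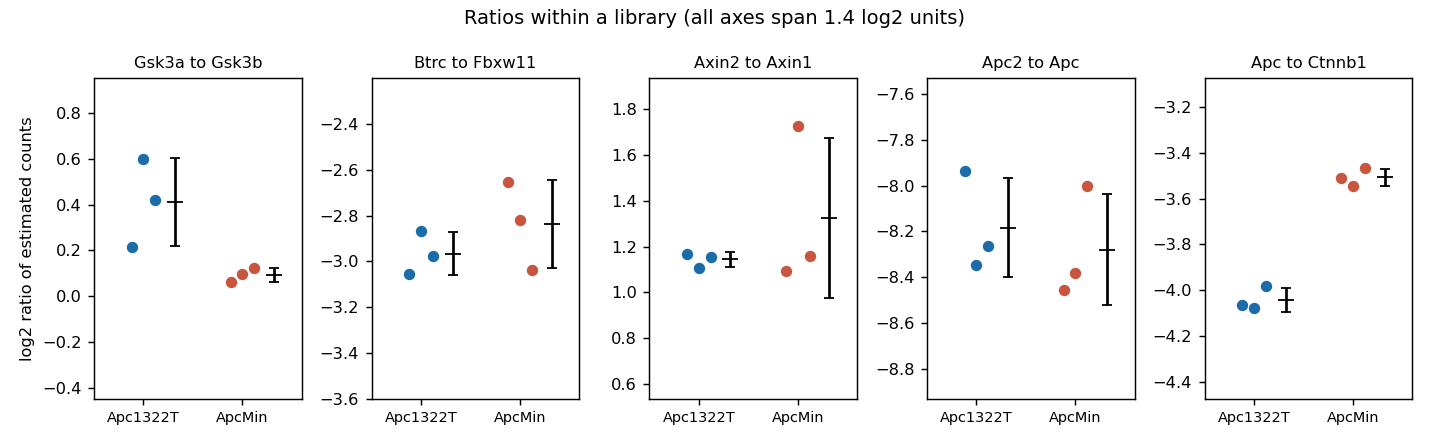
Log2 ratios of estimated counts within each library for 5 pairs of genes, on axes of equal span, with Apc1322T in blue, ApcMin in red and bars for the mean ± SD of 3 libraries. *Apc* to *Ctnnb1* is apart by 0.53 and *Gsk3a* to *Gsk3b* by 0.32 in the other direction, while the points of the other ratios overlap.

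Markers of the cell types in the tissue were compared beside these results. The 7 epithelial markers were all abundant and summed to between 11860 and 13930 CPM in Apc1322T and to between 9688 and 11240 CPM in ApcMin libraries, lower in ApcMin by 0.34 on the log2 scale. All 7 had a negative log2 fold change, from *Vil1* at -0.60 to *Krt18* at -0.077, and 0 passed the threshold (edgeR, adjusted p). Smooth muscle markers (5 genes) summed to between 92.0 and 197 CPM in Apc1322T and to between 214 and 314 CPM in ApcMin libraries. Singly, *Myh11*, *Des* and *Cnn1* overlapped. *Acta2* did not, and *Actg2* was apart by a narrow margin, with 31.81 CPM in Apc1322T replicate 1 against 31.99 CPM in ApcMin replicate 3. Fibroblast markers (6 genes) overlapped, from 604 to 1523 CPM in Apc1322T and from 982.5 to 3304 CPM in ApcMin libraries. Endothelial markers (4 genes) went from 75.8 to 117.5 CPM in Apc1322T and from 117.3 to 159.7 CPM in ApcMin libraries, and overlapped by 1 library of each genotype only. Of these genes *Cdh5* alone did not overlap, at 40.02, 19.2 and 17.38 CPM in Apc1322T and 57.65, 55.75 and 86.61 CPM in ApcMin libraries. *Pecam1*, *Kdr* and *Emcn* overlapped, and *Kdr* and *Emcn* were lower in ApcMin replicate 2 than in every Apc1322T library. The endothelial sum thus rests largely on *Cdh5*. Immune markers (6 genes) overlapped, from 398 to 535 CPM and from 319.8 to 958.5 CPM, as did enteroendocrine markers (6 genes), from 43.1 to 75.6 CPM and from 50.8 to 64.5 CPM. Most of the immune sum was *Jchain*, at 492, 360 and 439 CPM in Apc1322T and 248.5, 269 and 896 CPM in ApcMin replicates 1 to 3. The sum thus says little about the other 5 immune markers. None of the marker genes compared was at 0 in all libraries.

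The members were therefore also set relative to the summed counts of the epithelial markers of the same library, a comparison added after the values were seen. Per 1000 epithelial counts, *Gsk3a* had 9.95, 10.2 and 9.89 counts in Apc1322T and 10.2, 9.46 and 10.6 counts in ApcMin adenomas. The ranges overlapped and the log2 difference was 0.0075 (exact permutation p = 1.0), so that the lower *Gsk3a* level of ApcMin adenomas was not present on this scale. The value depends on the markers summed, whose own log2 fold changes ran from -0.60 to -0.077, and other choices were not tested. The log2 ratio of *Gsk3a* to *Gsk3b*, lower by 0.32 in ApcMin adenomas, does not change with this scaling. *Ctnnb1* had 121, 106 and 100.3 counts in Apc1322T and 125.5, 116 and 143 counts in ApcMin adenomas, with overlap and with the opposite direction (log2 difference 0.23, exact permutation p = 0.20). *Apc* had 7.20, 6.26 and 6.35 counts in Apc1322T and 11.01, 9.92 and 12.95 counts in ApcMin adenomas. Its difference was thus larger on this scale, at 0.77 (1.70-fold), and without overlap (exact permutation p = 0.10).

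This scaling adds 0.34 to every log2 difference, so that its directions have to be read against all genes. In all, 36.2% of the genes tested did not overlap on it, 5869 of them higher and 113 lower in ApcMin libraries. Among the members 5 did not overlap, all higher in ApcMin libraries: *Apc* by 0.77, *Amer1* by 0.68, and *Btrc*, *Gsk3b* and *Csnk1a1*, by 0.39, 0.32 and 0.24. *Axin1* overlapped, at 0.44. *Apc* and *Amer1* were the members above the other genotype's libraries on both scales. On the CPM scale 1821 of the 16536 genes tested were above in this way, and those above on both scales were not counted. As the shift raises every difference, members already higher in ApcMin keep their direction, so that the second scale is no independent support. The sums of the smooth muscle markers, and with overlap those of the endothelial and fibroblast markers, were also higher in ApcMin libraries, and their part in these differences was not tested.

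**Figure D4:**
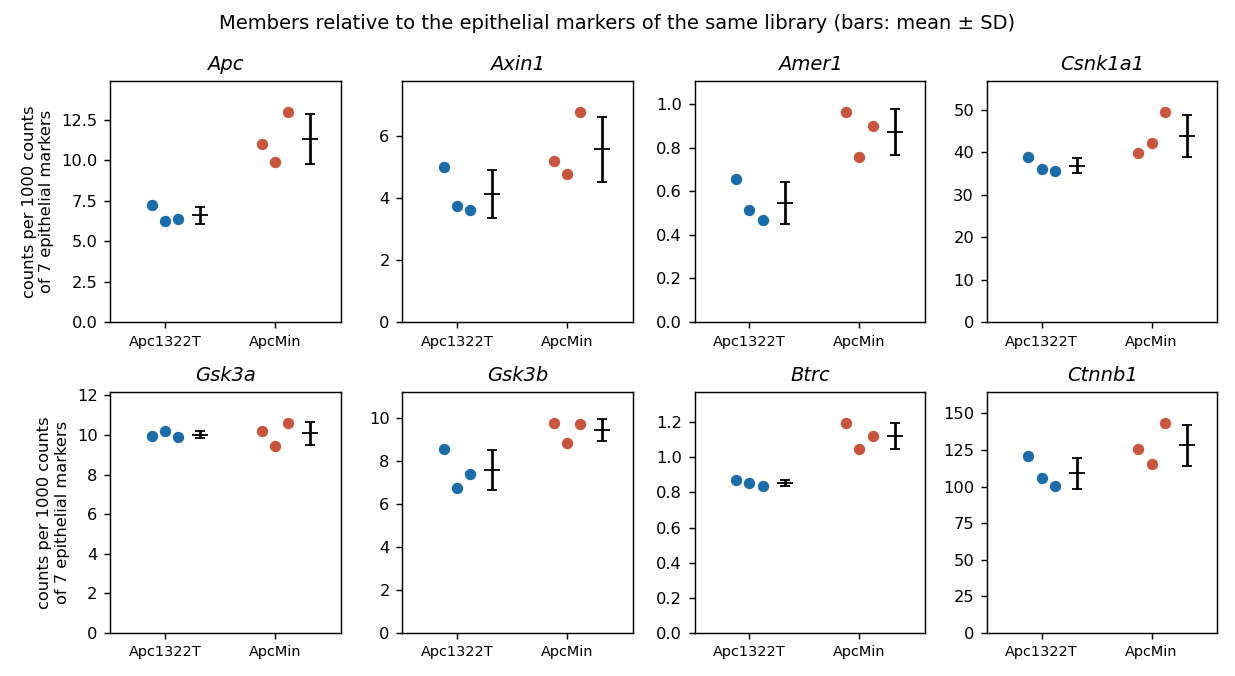
The 8 members tested as counts per 1000 counts of the 7 epithelial markers in the same library, on linear axes from 0, with Apc1322T in blue, ApcMin in red and bars for the mean ± SD of 3 libraries. *Gsk3a* is level between the genotypes at 9.46 to 10.6, unlike on the CPM scale, and *Apc* remains apart.

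The other genes of the pathway were compared as 7 lists of 40 genes, of which 39 were tested. Neither edgeR nor DESeq2 called any at an adjusted p under 0.01, and 2 (5.13%) had an unadjusted p under 0.05 in edgeR's test, against 15.1% of all genes. Their median log2 fold change was -0.026, against 0.017 over all genes tested. Of the scaffold paralogs, *Axin2* had 134, 109 and 112 CPM in Apc1322T and 113, 178 and 146 CPM in ApcMin adenomas (log2 fold change 0.30, SE 0.18), with overlap. *Amer2* had between 1.23 and 2.79 CPM in the 6 libraries (log2 fold change 0.025, SE 0.42). *Amer3* had 0 counts in all 6, a level of at most 0.143 CPM in the library where 3 counts weigh most.

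The other casein kinase 1 genes ran from *Csnk1g3*, at -0.17 (SE 0.088), to *Csnk1e*, at 0.33 (SE 0.15), whose product also acts on Dishevelled upstream of the complex. The 4 genes of the β-TrCP ubiquitin ligase, SCF, ran from *Fbxw11*, at -0.074, to *Rbx1*, its RING subunit, at 0.10 (SE 0.090). Of the 10 genes of protein phosphatase 2A, which removes phosphates from members of the complex, 3 were above and 7 below 0, from *Ppp2r5a* at -0.18 (SE 0.16) to *Ppp2r1b* at 0.10 (SE 0.13). In the group that sets the turnover of Axin, *Siah2*, a ubiquitin ligase, was lowest at -0.22 (SE 0.12) and the tankyrase *Tnks2* highest at 0.12 (SE 0.13). Among the genes that switch the complex off or bind Gsk3, *Frat1*, a Gsk3-binding protein, was lowest at -0.25 (SE 0.17). *Dvl3*, a Dishevelled protein, was highest at 0.16 (SE 0.14). None of these was called.

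The 5 partners of β-catenin compared were *Cdh1* (E-cadherin), *Ctnnd1* (p120-catenin), *Ctnna1* (α-catenin), *Jup* (plakoglobin) and *Ctnnbip1*, whose product binds β-catenin and keeps it from Tcf. All 5 were lower in every ApcMin library than in every Apc1322T library, as were 1647 of the 16536 genes tested, where 21.0% of all genes did not overlap in one direction or the other. Their log2 fold changes ran from -0.36 (*Ctnnd1*, SE 0.11, adjusted p = 0.282 in edgeR's test) to -0.15 (*Ctnnbip1*, SE 0.093), with *Cdh1* at -0.32 (SE 0.10, adjusted p = 0.286), and 0 passed the threshold. Relative to the epithelial markers *Cdh1* had 88.9, 84.4 and 84.3 counts per 1000 in Apc1322T and 89.3, 83.1 and 87.8 in ApcMin adenomas. On that scale *Cdh1*, *Ctnnd1* and *Ctnna1* overlapped (log2 differences 0.015, -0.029 and 0.12), and *Jup* and *Ctnnbip1* were higher in ApcMin libraries without overlap, by 0.12 and 0.19, where 36.2% of all genes did not overlap. As the shift of 0.34 applies to every gene, the direction of *Ctnna1*, *Jup* and *Ctnnbip1* turned with it, and *Cdh1* and *Ctnnd1* were nearly level.

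**Figure D5:**
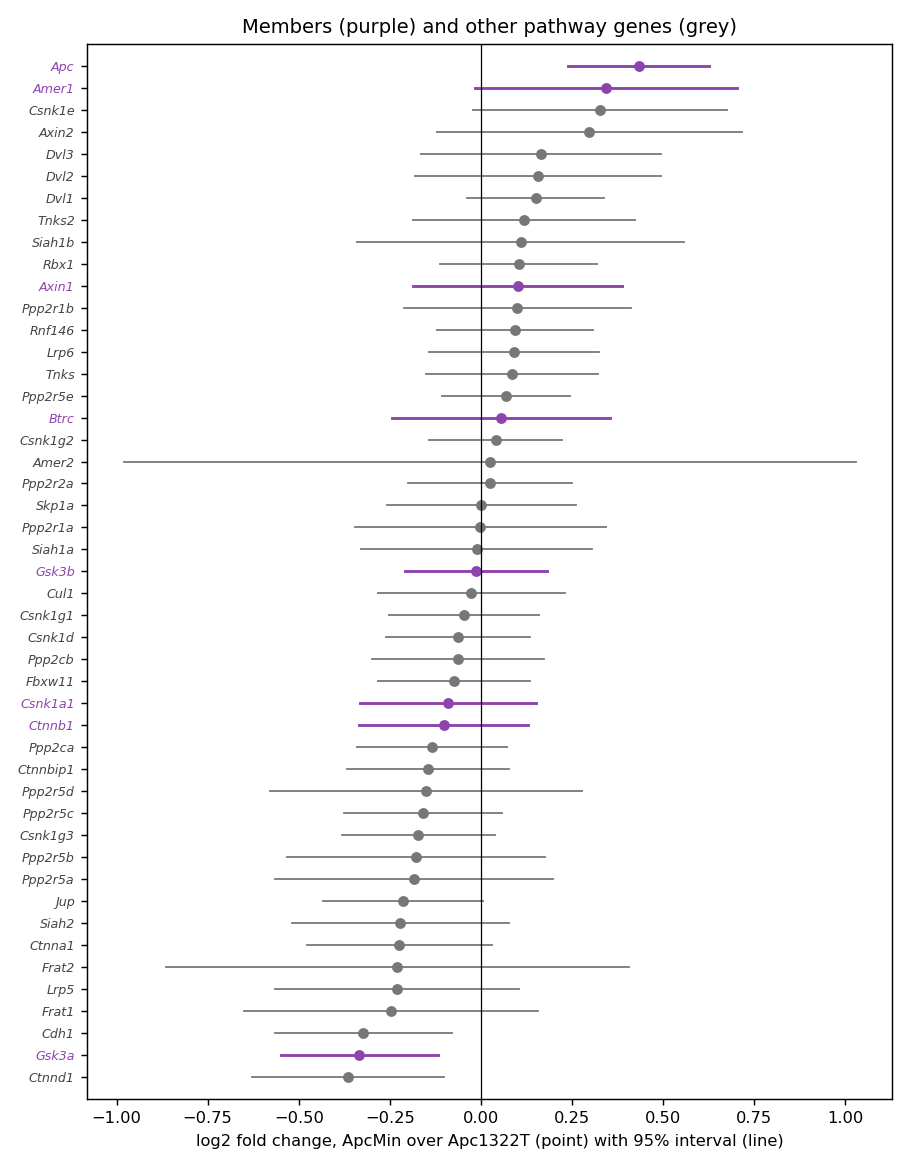
Log2 fold change of ApcMin over Apc1322T, scaled to the library, with its 95% interval, for the 8 members tested (purple) and 39 other genes of the pathway (grey). The intervals of *Apc* and *Gsk3a* are the members' intervals that do not reach 0, at 0.24 to 0.63 and -0.55 to -0.12, and *Gsk3a* is at 0.0075 when set relative to epithelial markers.

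The pattern of *Apc* over the 6 libraries was compared with that of the 8392 other genes that varied at least as much. Likeness was measured as the SD over the libraries of the difference in log2 CPM, where 0 is the same pattern. The 5 closest genes were *Zmym6*, *Dnaaf2*, *Ankrd44*, *Bnip2* and *Arl14ep*, with an SD of between 0.058 and 0.073 over the 6 libraries. They lie on chromosomes 4, 12, 1, 9 and 2. Their log2 fold changes were between 0.41 and 0.48, near the 0.43 of *Apc*. The choice by pattern over the same libraries fixes this nearness in advance, so that it is no separate result. Neither edgeR nor DESeq2 called any of the 5 genes, and the smallest adjusted p was 0.0545 for *Bnip2* in DESeq2's test. The other members tested varied less than *Apc* and so were not among the 8392 genes. A gene that varies less can have a smaller SD of the difference for that reason. Among these members the closest was *Amer1*, with an SD of 0.15. Of the genes compared 1.28% were closer, which is not a place of *Amer1* among them. *Gsk3a* was the farthest, with an SD of 0.43.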

How the data were processed

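Adenoma RNA of 3 Apc1322T and 3 ApcMin libraries was analysed, grouped by the sample titles. The authors quantified the reads against transcripts of GRCm38 with Salmon. The deposited values are estimated counts summed per gene and not normalised, and 51.3% of the values above 0 are not whole (tolerance 0.0001). The counts were rounded. GENCODE M21 (GRCm38) named 34582 of the 34866 genes, and gave lengths and coordinates. Whether Salmon was set to the strand of the libraries is not given in the sources used here. Genes were filtered with filterByExpr (minimum count 10, total 15), scaled by TMM and tested in edgeR 4.0.16 (quasi-likelihood, robust), with p-values adjusted by Benjamini-Hochberg over all genes tested. SEs and intervals come from the F statistic. Log2 CPM used a prior count of 2, and ratios 0.5 added counts. Exact permutation tests ran over the 20 assignments of 6 libraries (SciPy 1.17.1). DESeq2 1.42.0 and limma 3.58.1 (voom) in R 4.3.3 were alternatives. The procedures were tested on simulated counts. The replicate numbers do not pair libraries by the labels. A signal of 3 counts, taken as the smallest, was at most 0.143 CPM in any library.

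The members and gene lists were chosen with earlier results of these data known. Named were all members, their paralogs, the lowest and highest gene of each pathway list, any gene past the threshold, and the 5 genes most like *Apc*. Further partners of β-catenin, *Ulk4* and other overlapping genes were named after their values were seen. So were the markers *Vil1*, *Krt18* and *Jchain*, and the single markers of smooth muscle and endothelium. The scaling to epithelial markers and the counts at an unadjusted p were also added then. *Skp1* was counted under its annotated symbol *Skp1a*. Protein sequences were not used here, and 1 list of marker genes is not reported here.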

Additional observations from a re-analysis of the deposited data

How the results depend on the processing

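The directions of *Apc*, *Gsk3a*, *Amer1*, *Btrc*, *Csnk1a1* and *Ctnnb1* held in each of the alternatives scaled to the library, but some sizes rested on 1 library. *Btrc* went from 0.056 to 0.0057 without Apc1322T replicate 1, 0.016 without ApcMin replicate 1 and 0.10 without ApcMin replicate 3, and *Csnk1a1* from -0.091 to -0.022 without ApcMin replicate 1. The ratio of *Btrc* to *Fbxw11* was between 0.039 and 0.23 with a library left out. *Apc* had an adjusted p below 0.01 in DESeq2's Wald test alone (log2 fold change 0.42), which called 1 member and 194 genes. The count of 0 genes became 1 without the filter on low counts and 1 at an adjusted p under 0.05, and was between 0 and 1 with each library left out. At an unadjusted p under 0.05 there were between 1180 and 4117 genes with a library left out (4117 without Apc1322T replicate 1, 1180 without Apc1322T replicate 2, 1472 without Apc1322T replicate 3 and 1649 without ApcMin replicate 3), and 2 members in each of these fits. The members whose libraries did not overlap were between 4 and 6 of 8 with a library left out, and 6 without Apc1322T replicate 1, where 47.7% of all genes did not overlap (25% to 31.9% without another library). They were 3 with upper quartile scaling (20.9% of all genes). *Gsk3b* was at 0.043 with upper quartile scaling, and between -0.065 and 0.014 with a library left out (0.012 without Apc1322T replicate 1, 0.014 without Apc1322T replicate 3 and 0.012 without ApcMin replicate 3). *Axin1* was between -0.0057 (without ApcMin replicate 3) and 0.19. Relative to the epithelial markers *Gsk3a* was at 0.0075, *Gsk3b* at 0.32, *Csnk1a1* at 0.24 and *Ctnnb1* at 0.23. The ratio of *Axin2* to *Axin1* was between -0.019 (without ApcMin replicate 2) and 0.30, and that of *Apc2* to *Apc* between -0.24 and 0.027 (without Apc1322T replicate 1). With merged exons, 2 of the 9 genes changed place in the order of levels. The cause of these changes was not tested. Fits that leave a library out also have fewer samples, and the epithelial scaling shifts every difference by a constant. Other scalings moved the median of all genes by -0.0100 (DESeq2's size factors) and 0.057 (upper quartile).

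With the replicate number as a block, the log2 fold change of *Apc* was 0.43 (adjusted p = 0.348, edgeR's quasi-likelihood test) and that of *Ctnnb1* -0.10 (adjusted p = 0.709), and the block changed no call. Same-numbered libraries share only a number: their deviations from the genotype means correlated at -0.014, 0.16 and -0.29, and not every library correlated best with its own number. Few counts limit *Apc2*, and among the members tested *Amer1* and *Btrc* had the fewest.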
